A study of Triticum aestivum with 12 samples.

Results

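The 237 probe sets described here had their highest group mean in grains of the wheat genotype WL711 at 14 days after anthesis (DAA), above the other 3 groups of the series, which were IITR26 grains at 28 DAA, WL711 grains at 28 DAA and IITR26 grains at 14 DAA. They were chosen out of 61179 probe sets by their group means. The log2 difference of IITR26 minus WL711 had to be -2 or lower at 14 DAA, with every IITR26 array below every WL711 array, and between -1 and 1 at 28 DAA. WL711 also had to be lower by 2 or more at 28 DAA than at 14 DAA, and the change in IITR26 (28 minus 14 DAA) had to be below 1. A log2 difference of 1 is a 2-fold ratio. Another 2 probe sets met these conditions and were left out by their identifiers, Ta.24730.2.S1_x_at (a protochlorophyllide reductase) and Ta.27751.6.S1_at. All 4 group means went into the choice, so the differences between groups given here describe the members and carry no test.

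IITR26 is a landrace with high grain mineral concentration and WL711 a modern cultivar with low grain mineral concentration, both field-grown. The grains were taken at 28 and 14 DAA, anthesis being flowering, and for each sample 3 whole grains were taken for RNA, which was measured on an Affymetrix GeneChip Wheat Genome Array. Each of the 4 groups had 3 arrays, 12 in all, which were described as biological replicates without the plant of each sample being given, so the error given here is the spread between these samples. Each genotype is 1 line, so mineral concentration and any other trait that separates the lines cannot be told apart. In every probe set the deposited log2 values have a median of 0 over the 12 arrays. The brightness of a probe set is therefore not known, levels cannot be set against each other between probe sets, and a group near 0 may be weakly expressed or not expressed at all. The number of arrays limits the precision, and the standard error of a difference had a median of 0.26 over the members.

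At the earlier stage the wheat grain is growing and filling, and the later stage belongs to late filling, when the embryo and the aleurone layer mature. Growing tissues loosen their cell walls with expansins and xyloglucan endotransglucosylases, and they lay down extensins, arabinogalactan proteins and other structural wall proteins. Pectin, another wall component, is stiffened when pectin methylesterases remove its methyl groups, and small inhibitor proteins block these enzymes. Cystatins block papain-type cysteine proteases, and plant MYB proteins bind DNA and control transcription.

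The arrays of WL711 at 14 DAA stood far above the other 9. Over the 237 members, the median group mean was -0.32 in IITR26 at 28 DAA, -0.19 in WL711 at 28 DAA and 0.10 in IITR26 at 14 DAA, against 3.38 in WL711 at 14 DAA, where the means lay between 1.78 and 8.24. In 236 members every WL711 array at 14 DAA was above all 9 others, and the exception was Ta.12713.1.S1_at. The choice by group means largely fixed this count, and its share over all probe sets was not counted. The choice required all 3 IITR26 arrays to lie below all 3 WL711 arrays at 14 DAA, which 15.8% of all probe sets met. The difference of IITR26 minus WL711 at 14 DAA had a median of -3.06 and ranged between -8.33 and -2.0, with a median of 0.0098 over all probe sets. It was -3 or lower in 125 members, -4 or lower in 67 and -6 or lower in 21. In whole grains, fewer cells of a type and less RNA per cell cannot be told apart.

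**Figure D1:**
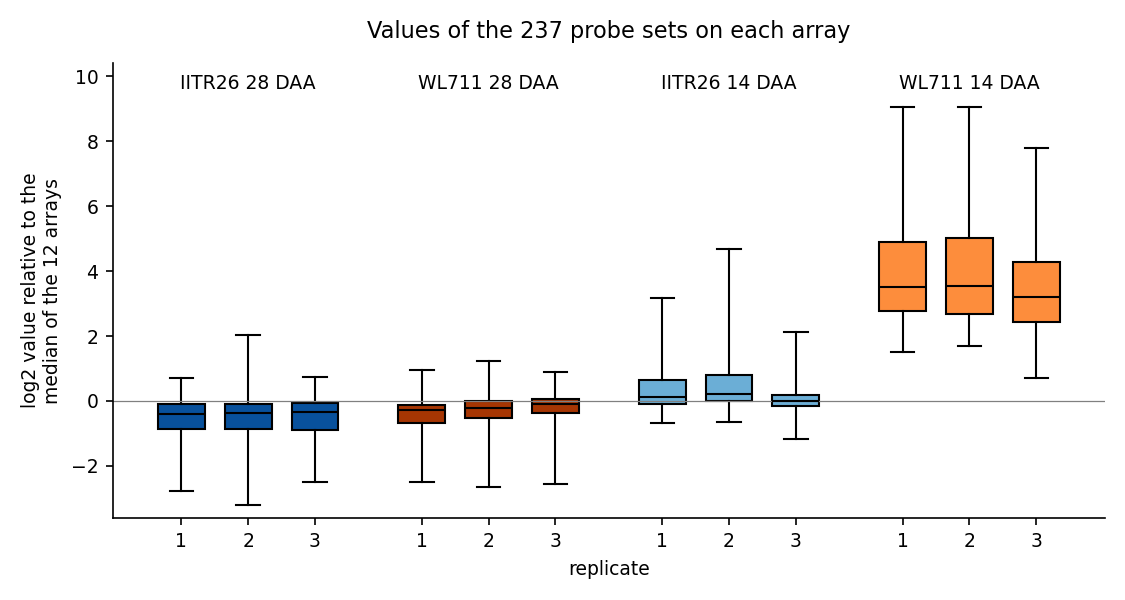
Values of the 237 members on each of the 12 arrays, as log2 relative to the median of the 12 arrays (boxes are quartiles with the median, whiskers reach the lowest and highest member). The medians of the WL711 arrays at 14 DAA are 3.52, 3.53 and 3.19, and those of the other 9 arrays lie between -0.39 and 0.21.

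By limma, with an adjusted p of at most 0.01 over all probe sets and a log2 difference of at least 2, 231 of the 237 members were lower in IITR26 at 14 DAA and 0 higher, against 0.772% and 0.595% of all probe sets. After the repeated quantile normalization 114 were called lower (0.477% of all probe sets). The methods' t-test, unpaired, called 221 at its own threshold (0.799%) and 40 after Benjamini-Hochberg adjustment (0.208%). It was run here without the variation filter and analysis of variance that came before it in the study. The 6 that limma did not call were 4 probe sets of 1 cluster (Ta.9481), Ta.10837.1.A1_at and Ta.12713.1.S1_at. Between 28 and 14 DAA, 236 members were called lower in WL711 and 0 higher (1.34% and 0.958% of all probe sets). The genotype difference (28 minus 14 DAA) was called higher in 184 members and lower in 0 (0.729% and 0.796% of all probe sets). The choice of members used these contrasts, so nothing is read from these counts.

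At 28 DAA the genotypes were close by construction, and 0 members were called lower or higher at a log2 difference of 2 (0.804% and 0.566% of all probe sets). The difference had a median of -0.15 and lay within 0.5 in 179 members. It was below 0 in 171 and above 0 in 65, and the arrays of the genotypes overlapped in 180 (75.95%), against 71.8% of all probe sets. With the adjusted p alone, 3 members were lower in IITR26 at 28 DAA, against 5.56% of all probe sets. These were a lipid transfer family protein (Ta.8258.2.S1_at, -0.98), a bZIP factor (Ta.25856.1.S1_s_at, -0.83) and peroxiredoxin Q (Ta.6572.2.S1_at, -0.99). The 1 member above in IITR26, against 4.17% of all probe sets, was a peroxidase (Ta.30674.1.S1_at, 0.88).

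The members were a large share of what WL711 had in excess at 14 DAA. In all, 510 probe sets were lower in IITR26 by 2 or more at 14 DAA with no overlap between arrays. Of these, 138 (27.1%) were still lower by 2 or more at 28 DAA, 100 (19.6%) were lower by between 1 and 2, 266 (52.2%) were within 1 and 6 (1.18%) were higher by over 1. Among the 266, WL711 fell by 2 or more in 239, which are the members and the 2 left out, and by less in 27. The mirror image, with the genotypes exchanged, held 17 of 396 probe sets (4.29%), against 237 of 510 (46.5%). These counts depend on the spread of the arrays. Over all probe sets the SD of an array was between 0.30 and 0.35 in IITR26 at 14 DAA, against 0.60 and 0.63 in WL711 at 14 DAA. At 28 DAA it was between 0.60 and 0.69 in IITR26 and between 0.37 and 0.42 in WL711. When a repeated quantile normalization gave all arrays 1 distribution, 117 probe sets met the rule, 107 of them members, and 69 met its mirror image. That step narrows the WL711 arrays at 14 DAA and widens the IITR26 arrays at 14 DAA by design. It cannot tell a technical spread from a real one.

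**Figure D2:**
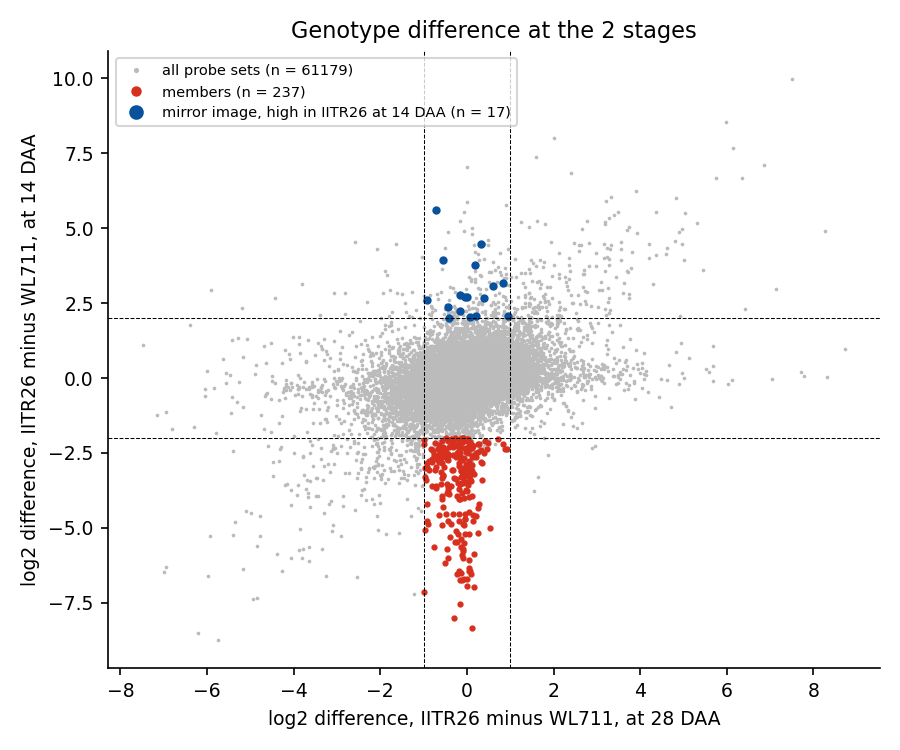
Log2 difference of IITR26 minus WL711 at 28 DAA (horizontal) and 14 DAA (vertical) for all 61179 probe sets, with the 237 members and the 17 probe sets of the mirror image coloured and the limits of the choice dashed. The members hang below the centre, down to -8.33, and the 17 above it reach 5.6.

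A high value in WL711 alone held for some members and not for others. No stage before 14 DAA was measured, so a rise before it is not known and only the fall was seen. In IITR26 the change (28 minus 14 DAA) ranged between -4.99 and 0.77, with a median of -0.44. It lay within 0.5 in 117 members (49.4%), was above 0.5 in 5, between -1 and -0.5 in 36, between -2 and -1 in 43 and -2 or lower in 36 (15.2%). Limma called 35 members lower and 0 higher in IITR26 at 28 DAA than at 14 DAA, against 1.59% and 1.33% of all probe sets. At the adjusted p alone 74 were lower, against 10.1%, and 0 higher, against 7.46%. Of the 165 members without the suffix x, s or a, which mark probe sets that can bind several transcripts, 19 were called lower, against 1.2% of all probe sets without these suffixes. Without the second IITR26 array at 14 DAA, 28 members fell by 2 or more in place of 36. The rule set only an upper limit on the change in IITR26, and these counts too are a description. The 36 members with the steep fall in IITR26 averaged between the extremes at 14 DAA, with a median group mean of 1.16 in IITR26 and 4.59 in WL711.

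**Figure D3:**
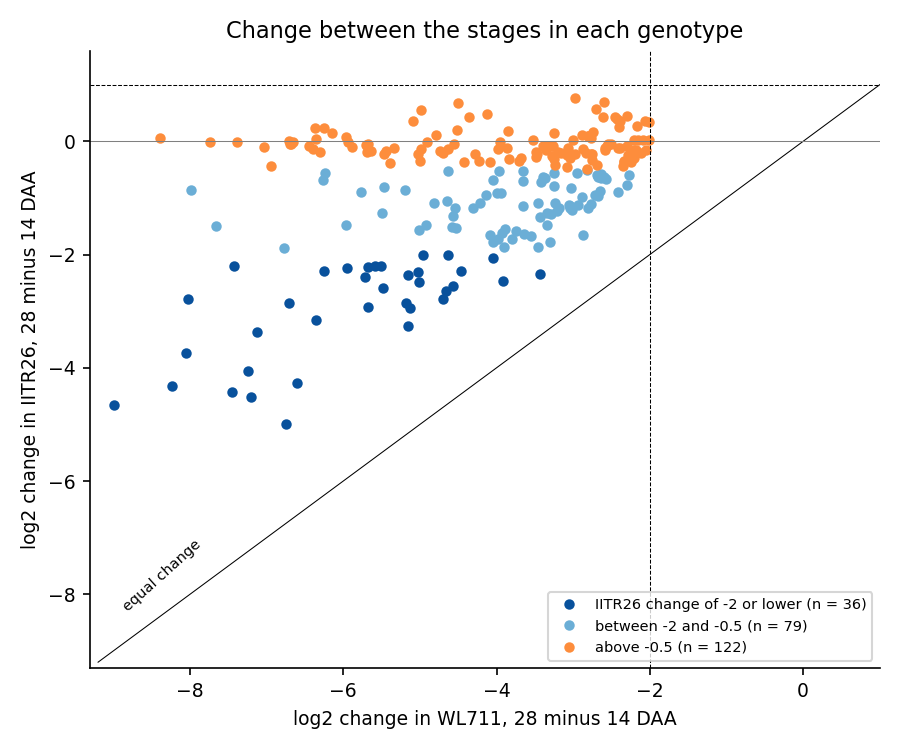
Log2 change between the stages (28 minus 14 DAA) in IITR26 (vertical) and WL711 (horizontal) for each of the 237 members, coloured by the change in IITR26, with the line of equal change. A band of 122 members stays above -0.5 in IITR26, and 36 fell by 2 or more in both genotypes. The limits of the choice put every member on the side of the line where IITR26 fell less.

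The steepest differences belonged to proteins without a known function and to a cystatin. The hypothetical protein TaAffx.48201.1.S1_s_at had 0.080, -0.11 and -0.080 in IITR26 at 28 DAA, -0.33, 0.085 and -0.21 in WL711 at 28 DAA and -0.22, 0.15 and -0.23 in IITR26 at 14 DAA, against 9.05, 9.06 and 6.6 in WL711 at 14 DAA. Only the last group was away from 0, with IITR26 323-fold lower than WL711 at 14 DAA, and replicate 3 of it was lower than the other 2. A second hypothetical protein, Ta.9815.1.S1_at, had -0.062, -0.15 and -0.25 in IITR26 at 14 DAA, against 8.22, 8.48 and 6.91 in WL711 at 14 DAA. The cystatin gene LOC542877 (Ta.2786.1.S1_at) had 0.19, -0.16 and -0.26 in IITR26 at 28 DAA, -0.12, 0.38 and 0.012 in WL711 at 28 DAA and -0.15, -0.051 and -0.012 in IITR26 at 14 DAA, against 7.6, 8.3 and 6.51 in WL711 at 14 DAA. The cystatin was thus flat over 3 groups and 186-fold lower in IITR26 than in WL711 at 14 DAA. A second cystatin probe set (Ta.9883.1.S1_x_at) differed by -6.45, and a further inhibitor of cysteine endopeptidases (Ta.9869.1.S1_at) by -4.76. The suffix x marks probes that can bind other transcripts, and Ta.9883.1.S1_at of the same cluster, which is without it, differed by -6.35 and changed by 0.041 in IITR26.

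Putative functions came from a table of 580 probe sets that the study drew up from its own calls on these samples, so counts over it are no independent evidence of direction. Members were also chosen for being lower in IITR26 at 14 DAA, so the calls given below for each list follow in part from the choice. It held 117 of the members, 88 with a function and 29 without. Platform annotation added a gene for 4 others, which left 145 members with neither a function nor a gene. In the table the members made up 5 of 6 MYB factors, 11 of 21 structural cell wall proteins, 8 of 14 inhibitors of pectinesterases and invertases, 9 of 19 defence proteins, 6 of 10 proteases and 5 of 9 inhibitors of proteases and amylases. They made up 4 of 7 expansins and xyloglucan enzymes, 4 of 10 photosynthesis proteins, 7 of 26 lipid transfer proteins, 7 of 20 glycoside hydrolases, 6 of 17 receptor and protein kinases and 3 of 8 lipases and fatty acid enzymes. The lists were drawn by words in the putative functions and overlap. The extensin Ta.9957.1.S1_at, for example, is counted as a wall protein and as a kinase. None of the 4 storage proteins, 5 late embryogenesis abundant proteins, 2 transfer cell proteins or 14 histones and DNA replication proteins of the table was a member. The choice needed a fall of 2 or more in WL711. In these lists the median change in WL711 was 2.91, 2.01, -1.38 and -0.25, in the order given. Their absence thus follows at least in part from the choice. By the study's functional classes the share was highest for Regulation (15 of 44) and Cell Organisation (17 of 52) and was 0 for Cell Cycle (0 of 6) and RNA Processing (0 of 8). Over the whole table it was 117 of 580.

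**Figure D4:**
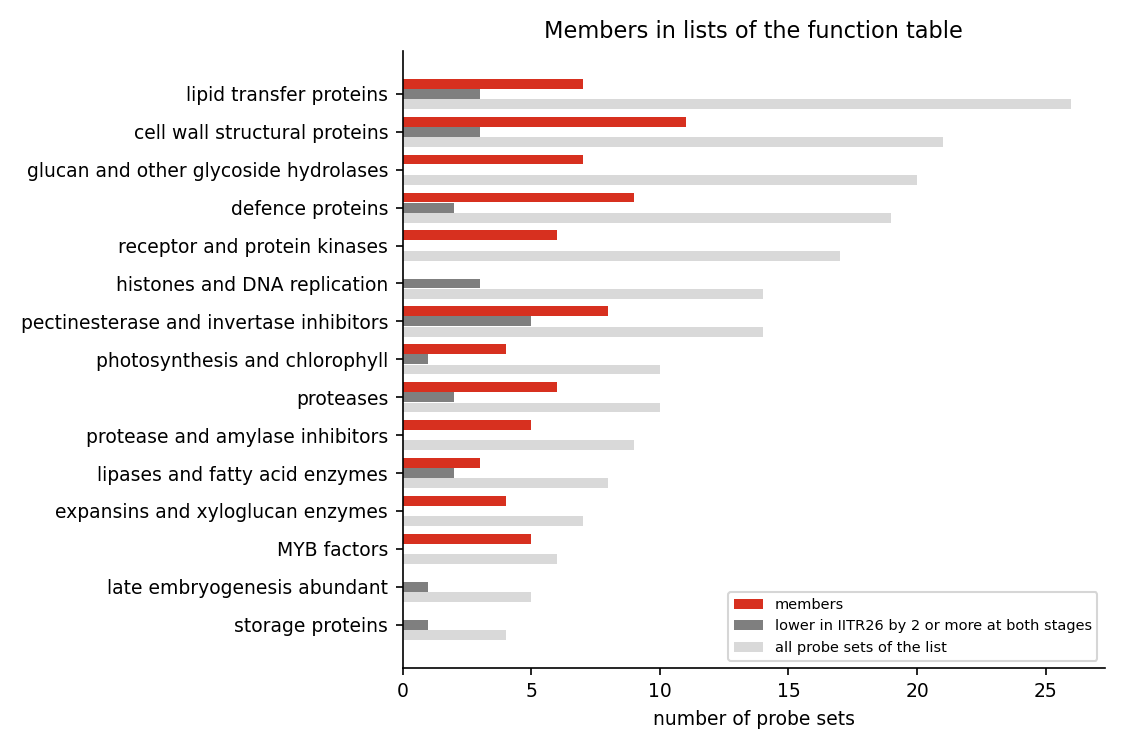
Number of probe sets in each list of putative functions, for the members (red), the probe sets lower in IITR26 by 2 or more at both stages (dark grey) and the whole list (light grey). The members make up 5 of 6 MYB factors and 11 of 21 structural cell wall proteins, and none of the histones, late embryogenesis abundant or storage proteins. The choice needed a fall in WL711, which leaves out probe sets that rose or changed little there.

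All 5 MYB factors were flat in IITR26. At 14 DAA, 5 of the 6 MYB probe sets of the table were called lower in IITR26 and 0 higher (0.772% and 0.595% of all probe sets). The 5 are the members, which were chosen for being lower, so this count follows from the choice. Ta.27779.1.S1_at had -0.2, -0.18 and 0.27 in IITR26 at 28 DAA, -0.094, -0.014 and 0.33 in WL711 at 28 DAA and -0.059, 0.0083 and -0.0083 in IITR26 at 14 DAA, against 7.15, 7.76 and 5.26 in WL711 at 14 DAA. The difference at 14 DAA was -6.74 for this probe set, -6.54 for Ta.25687.1.S1_at, -6.06 for Ta.4557.1.S1_at, -5.52 for TaAffx.52616.1.S1_at and -4.77 for TaAffx.35343.1.S1_at. The change in IITR26 lay between -0.18 and 0.15 in all 5. In WL711 at 14 DAA, Ta.25687.1.S1_at had 6.69, 7.05 and 5.07, Ta.4557.1.S1_at had 6.63, 6.51 and 5.19 and TaAffx.35343.1.S1_at had 5.26, 5.13 and 3.83, so the third array was the lowest in each. A protein annotated as regulating meristem growth (TaAffx.14473.1.S1_at) changed by 0.56 in IITR26 and differed by -5.0 at 14 DAA and by 0.54 at 28 DAA.

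All 14 inhibitors of pectin methylesterases and invertases in the list were lower by 2 or more in IITR26 at 14 DAA. Of these, 12 were called lower, against 0.772% of all probe sets, in a table selected for such differences. The 8 members had a median difference of -4.74, and another 5 were lower by 2 or more at both stages. TaAffx.117214.2.S1_s_at had 0.016, -0.016 and -0.2 in IITR26 at 28 DAA, -0.29, -0.044 and 0.33 in WL711 at 28 DAA and -0.034, -0.033 and 0.016 in IITR26 at 14 DAA, against 6.6, 6.81 and 6.65 in WL711 at 14 DAA. Its 3 WL711 arrays lay close together, and 2 more probe sets of its cluster, which the table does not list, were members, at -6.17 (TaAffx.117214.1.S1_at) and -5.71 (TaAffx.117214.2.S1_at). The next inhibitors were TaAffx.12788.1.S1_at (-5.63), Ta.27567.1.S1_at (-5.48), TaAffx.132703.1.S1_at (-4.91), TaAffx.65656.1.S1_at (-4.57) and TaAffx.78343.1.S1_at (-3.97), with changes in IITR26 between -0.22 and 0.20. The last 2 of the 8 behaved otherwise. TaAffx.3194.1.S1_at had -2.53, -3.19 and -2.49 in IITR26 at 28 DAA, -2.47, -2.11 and -1.46 in WL711 at 28 DAA and 1.46, 1.6 and 1.57 in IITR26 at 14 DAA, against 4.62, 4.74 and 4.45 in WL711 at 14 DAA. It was lower at 28 DAA than at 14 DAA on every array of both genotypes, with a change of -4.28 in IITR26 and -6.61 in WL711, and TaAffx.90186.1.S1_at changed by -1.58 and -3.74.

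Among the inhibitors of proteases and amylases, 5 of 9 probe sets were called lower in IITR26 at 14 DAA and 3 higher. Over all probe sets the shares were 0.772% and 0.595%. The 5 members included the cystatins given above, a peptidase inhibitor (Ta.27565.1.S1_at, -4.88) and an alpha-amylase/subtilisin inhibitor (Ta.9857.1.S1_at, -2.71), a protein that blocks both an amylase and a bacterial-type protease. The last had a change of -1.73 in IITR26, while the other 4 changed by between -0.23 and 0.24. All 10 proteases of the table were called lower in IITR26 at 14 DAA, against 0.772% of all probe sets, in a table selected for such differences. The 6 that were members were led by a subtilisin homologue, a serine protease (Ta.8527.1.A1_at, -4.86), followed by aspartic proteases (TaAffx.62787.1.S1_at, -3.52, and TaAffx.117975.1.S1_s_at, -2.65) and a papain-like cysteine protease (TaAffx.65607.1.S1_at, -2.32). Inhibitors of cysteine proteases and 1 such protease were thus high in the same WL711 arrays.

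Among the structural cell wall proteins, many also declined in IITR26, with a median change of -1.09 over the 11 members and a change of -1 or lower in 6. Of the 21 in the table, 16 were called lower in IITR26 at 14 DAA and 3 higher. The leucine-rich repeat extensin Ta.9957.1.S1_at had -0.091, -0.8 and -0.16 in IITR26 at 28 DAA, -0.82, 0.091 and -0.79 in WL711 at 28 DAA and 1.21, 0.85 and -0.53 in IITR26 at 14 DAA, against 7.6, 7.69 and 7.13 in WL711 at 14 DAA. On 2 of the 3 IITR26 arrays at 14 DAA it was above every array at 28 DAA, and on the third it was not. The pherophorin Ta.13736.1.S1_at, named after hydroxyproline-rich wall proteins of green algae, had -1.54, -1.18 and -1.17 in IITR26 at 28 DAA, -1.52, -0.66 and -1.27 in WL711 at 28 DAA and 1.32, 0.71 and 0.66 in IITR26 at 14 DAA, against 6.18, 6.28 and 6.38 in WL711 at 14 DAA. It was lower at 28 DAA than at 14 DAA in both genotypes without overlap, with a change of -2.20 in IITR26 and -7.43 in WL711. A structural wall protein linked to callose deposition (Ta.22916.1.S1_x_at) changed by -2.29 in IITR26 and -6.26 in WL711, and the hydroxyproline-rich glycoprotein Ta.8357.1.S1_at by -1.17 and -4.54. A member of the pollen Ole e I and extensin family (TaAffx.128643.6.S1_at) changed by -1.27 and -5.50, and 3 other probe sets of its cluster were members.

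Expansins and xyloglucan enzymes, which loosen walls, differed by a median of -2.85 over 4 members. Of the 7 in the table, 4 were called lower in IITR26 at 14 DAA, all of them members, and 2 higher. The expansin TaAffx.128740.2.S1_s_at had 0.5, 0.38 and 0.13 in IITR26 at 14 DAA, against 5.24, 5.23 and 4.68 in WL711 at 14 DAA. The expansin gene LOC543136 (Ta.30670.1.S1_at) had -0.11, 0.48 and -0.060 in IITR26 at 14 DAA, against 3.14, 3.47 and 3.3 in WL711 at 14 DAA. The xyloglucan endotransglucosylase gene XTH (Ta.30703.1.S1_at) had 0.74, 0.24 and 0.0062 in IITR26 at 14 DAA, against 2.72, 2.99 and 2.7 in WL711 at 14 DAA. In all 3 the genotypes lay well apart, with differences of -4.71, -3.20 and -2.47. Enzymes that cut glucans were split, 10 of 20 glycoside hydrolases being called lower in IITR26 at 14 DAA and 5 higher. A glucan 1,3-beta-glucosidase (Ta.9958.1.S1_at, -4.69) changed by -0.35 in IITR26, while glucan endo-1,3-beta-glucosidase GIV (Ta.1291.1.A1_at, -3.86) changed by -2.22.

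Dirigent proteins, which steer the coupling of lignin and lignan precursors, and pathogenesis-related proteins were among the 9 defence members. In the defence list 13 of 19 were called lower in IITR26 at 14 DAA and 3 higher. The dirigent protein Ta.362.1.S1_at had -0.013, 0.013 and -0.14 in IITR26 at 28 DAA, -0.48, 0.26 and 0.54 in WL711 at 28 DAA and -0.11, -0.044 and -0.69 in IITR26 at 14 DAA, against 6.88, 7.09 and 5.43 in WL711 at 14 DAA. It was flat in IITR26 (0.23), as was a second dirigent-like protein (Ta.7883.1.S1_x_at, -3.76 at 14 DAA). The thaumatin and osmotin homologue Ta.2002.1.S1_at had -0.89, -1.35 and -1.02 in IITR26 at 28 DAA, -0.71, -0.039 and -0.22 in WL711 at 28 DAA and 1.21, 1.18 and 0.039 in IITR26 at 14 DAA, against 6.29, 6.75 and 6.31 in WL711 at 14 DAA. Defensins are small cysteine-rich antimicrobial peptides. The defensin members named here declined in both genotypes, in WL711 by the choice, and other defensins of the study were not members. Defensin Tk-AMP-D5 (Ta.9936.1.S1_at) had -1.74, -1.94 and -1.7 in IITR26 at 28 DAA, -1.69, -1.04 and -0.94 in WL711 at 28 DAA and 1.28, 1.18 and 0.94 in IITR26 at 14 DAA, against 4.67, 4.77 and 3.93 in WL711 at 14 DAA, and Ta.4031.1.S1_at changed by -2.01 in IITR26 and -4.63 in WL711.

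**Figure D5:**
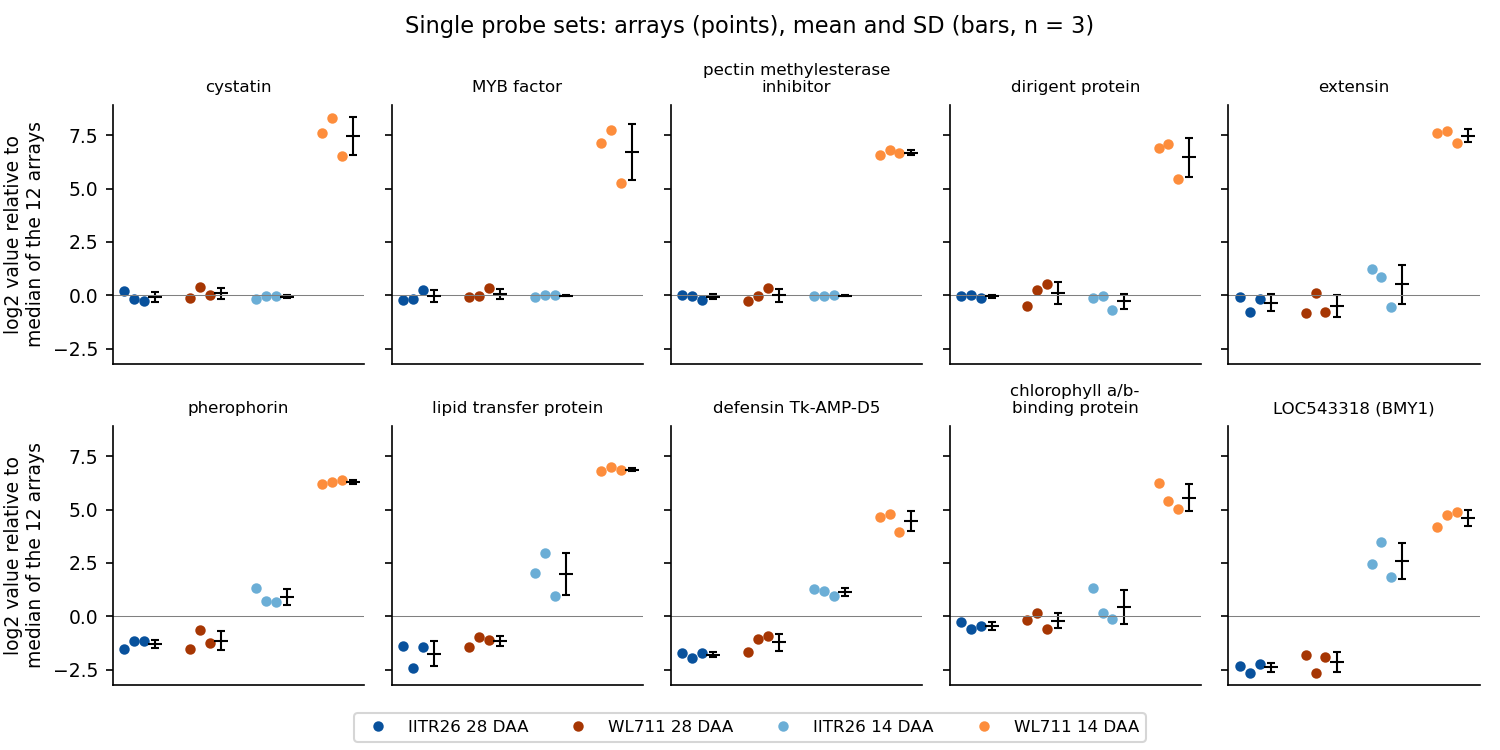
Log2 values of 10 members on each array (points), with mean and SD (bars, n = 3), relative to the median of the 12 arrays. In the cystatin, the MYB factor, the pectin methylesterase inhibitor and the dirigent protein only the WL711 arrays at 14 DAA lie far from 0. The dirigent protein also reaches -0.69 on an IITR26 array at 14 DAA and 0.54 on a WL711 array at 28 DAA. Pherophorin, the lipid transfer protein, the defensin and BMY1 also lie above their 28 DAA arrays in IITR26 at 14 DAA.

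Lipid transfer proteins, which carry lipids through the wall and include seed proteins of the same fold, were called lower in IITR26 at 14 DAA in 14 of 26 cases and higher in 0, and 7 were members. Ta.8258.2.S1_at had -0.85, -0.92 and -0.35 in IITR26 at 28 DAA, -0.033, 0.36 and 0.48 in WL711 at 28 DAA and -0.5, 0.033 and -0.11 in IITR26 at 14 DAA, against 4.85, 4.98 and 4.87 in WL711 at 14 DAA. Ta.28328.2.S1_x_at had -1.4, -2.42 and -1.43 in IITR26 at 28 DAA, -1.44, -0.97 and -1.12 in WL711 at 28 DAA and 2.04, 2.96 and 0.97 in IITR26 at 14 DAA, against 6.82, 6.98 and 6.84 in WL711 at 14 DAA. At 14 DAA they differed by -5.09 and -4.89, but the second also changed by -3.74 in IITR26. Of 8 lipases and fatty acid enzymes, 6 were called lower in IITR26 at 14 DAA and 0 higher (all probe sets, 0.772% and 0.595%). They held 3 members with changes in IITR26 between -0.37 and 0.43, a lipoxygenase (Ta.22828.2.S1_at, -4.59), a 3-ketoacyl-CoA synthase, which lengthens fatty acids (TaAffx.111932.1.S1_at, -3.75), and a GDSL-type lipase (Ta.21385.1.S1_x_at, -3.73). In the list of 17 receptor and protein kinases, 10 were called lower and 3 higher (0.772% and 0.595% of all probe sets). The list held 6 members. Among them, Ta.9957.1.S1_at and TaAffx.33689.1.S1_s_at are leucine-rich repeat proteins described as structural constituents of the cell wall, not as kinases. TaAffx.121584.1.S1_at is described only as a putative leucine-rich repeat protein. Another was a homologue of the brassinosteroid co-receptor BAK1 (Ta.8220.3.S1_x_at, -3.52), whose cluster gave 5 members with changes in IITR26 between -2.56 and -1.17.

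Photosynthesis proteins held 4 members, and 8 of 10 in the table were called lower in IITR26 at 14 DAA and 0 higher. Ta.3249.1.S1_at, a probe set for a chlorophyll a/b-binding antenna protein, had -0.27, -0.61 and -0.46 in IITR26 at 28 DAA, -0.16, 0.16 and -0.59 in WL711 at 28 DAA and 1.34, 0.13 and -0.13 in IITR26 at 14 DAA, against 6.26, 5.4 and 5.03 in WL711 at 14 DAA. It differed by -5.12, and the next, photosystem I subunit III (Ta.4255.2.S1_at), by -2.77. Green tissue genes picked by name from the platform annotation did not move with them. None of 37 such probe sets was a member or was called at 14 DAA, and their median lay between 0.0044 and 0.15 on the IITR26 arrays at 14 DAA, against 0.11 and 0.22 on the WL711 arrays at 14 DAA.

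The largest change in IITR26 among the members belonged to LOC543318 (Ta.3.1.S1_at), listed with the synonyms amy1 and BMY1, names given to starch-cutting amylases. It had -2.35, -2.64 and -2.21 in IITR26 at 28 DAA, -1.83, -2.66 and -1.91 in WL711 at 28 DAA and 2.45, 3.5 and 1.83 in IITR26 at 14 DAA, against 4.18, 4.75 and 4.89 in WL711 at 14 DAA. It was high at 14 DAA in both genotypes and was a member by -2.02, just past the limit, and after the repeated quantile normalization the difference was 1.03. A stress responsive protein (TaAffx.3154.1.S1_at) had 1.88, 2.21 and 1.69 in IITR26 at 14 DAA, against 5.25, 5.0 and 5.27 in WL711 at 14 DAA, and changed by -4.51 in IITR26. Calreticulin 1 (Ta.368.1.S1_x_at), a calcium-binding chaperone of the endoplasmic reticulum, changed by -2.35 in IITR26 and -3.43 in WL711, the smallest fall in WL711 among the 36 that fell by 2 or more in IITR26. At the other end, a transmembrane amino acid transporter (Ta.27916.1.A1_x_at) changed by 0.77 in IITR26 and -2.98 in WL711, and the peroxidase Ta.30674.1.S1_at by 0.57 and -2.70. In the transporter's cluster, Ta.27916.1.A1_s_at changed by -0.15 and -3.35.

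The spread between arrays also differed among the members, within the limit that the genotypes could not overlap at 14 DAA. In WL711 at 14 DAA the median SD was 0.31 over the members, against 0.13 over all probe sets, and 28 members had an SD above 1. The third array lay more than 1 below the mean of the other 2 in 56 members and more than 1 above in 0, with a median deviation of -0.33 over the members and 0.0027 over all probe sets. Of the 56, 52 were among the 122 members whose change in IITR26 was above -0.5, 4 were among the 79 that changed by between -2 and -0.5, and 0 were among the 36 that changed by -2 or lower. With only the members whose WL711 mean at 14 DAA was 4 or more, the third array was more than 1 lower in 32 of 44, 2 of 17 and 0 of 26. The median deviation of the third array was -1.38 over the 5 MYB factors and -1.18 over the 5 protease and amylase inhibitors, against -0.081 over the 11 structural wall proteins and -0.088 over the 7 lipid transfer proteins. The members that were low on the third WL711 array were thus nearly all flat in IITR26, and none of those with a change of -2 or lower in IITR26 was among them. The division of members by the change in IITR26 was made after the values were seen and carries no test. After the repeated quantile normalization 20 members were more than 1 below on the third array, all 20 among the 122 and 0 among the 36. Without the third WL711 array at 14 DAA the rule gave 253 probe sets, 231 of them members.

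In IITR26 at 14 DAA the third array was again the lowest, with a median deviation of -0.25 over the members and 28 members more than 1 below. Of these, 14 were among the 36 members that fell by 2 or more in IITR26, where the median deviation was -0.88, and 2 were among the 122 above -0.5. Without this array the rule gave 216 probe sets, 214 of them members. The widest spread was that of Ta.27774.2.S1_at, with an SD of 2.41. Embryo and aleurone genes chosen by name (12 probe sets, such as late embryogenesis abundant genes) had medians of 2.98, 3.11 and 3.60 on the IITR26 arrays at 28 DAA and 2.56, 2.35 and 1.90 on the WL711 arrays at 28 DAA. At 14 DAA they were -3.55, -3.72 and -1.90 in IITR26, against -4.47, -4.78 and -4.32 in WL711. The third IITR26 array at 14 DAA was thus the highest for the embryo and aleurone list and the lowest for the members, and none of the 12 was a member or was called at 14 DAA. In WL711, 10 of the 12 were called higher at 28 than at 14 DAA (0.958% of all probe sets), and the choice leaves out probe sets that rose there. Histone genes (18 probe sets, 0 members) had array medians between 0.28 and 0.44 in IITR26 at 14 DAA, against 0.41 and 1.22 in WL711 at 14 DAA. For storage protein genes (17 probe sets, 0 members) the array medians lay between -0.20 and 0.20. At 14 DAA 1 of the 17 was called lower in IITR26 and 2 higher, against 0.772% and 0.595% of all probe sets. Of the 4 storage proteins of the function table, 1 was called lower and 3 higher. The part of these lists in the members' differences was not tested.

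Probe sets of 1 cluster, a group of overlapping transcript sequences that shares the first part of the name, are not independent. The members came from 203 clusters, 26 of which gave more than 1 member (60 members in all). The largest were Ta.8220 with 5 members and Ta.9481 and TaAffx.128643 with 4 each. Suffixes x, s and a mark probe sets that can bind several transcripts, and 30.4% of the members carried one, with 20.3% for x alone, against 11.1% for x in all probe sets. The clusters also held 93 probe sets that were not members. These had a median difference of -0.63 at 14 DAA, and 78 of them (83.9%) were lower in IITR26, against 47.2% of all 60942 probe sets that were not members. A difference of -1 or lower was found in 41 (44.1%, against 2.48%), and WL711 fell by 2 or more in 26 (28.0%, against 1.0%). These relatives can share probes or sequence with the members and are no independent measure.

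At 3 of the limits of the choice, probe sets lay close on both sides. At 14 DAA the last members inside were TaAffx.31514.1.S1_at (-2.0007) and TaAffx.8262.1.S1_x_at (-2.0), and the first outside were the GDSL lipase Ta.9671.2.S1_x_at (-1.99) and Ta.20202.1.A1_x_at (-1.98). At 28 DAA calreticulin 1 and peroxiredoxin Q (both -0.99) were inside, and Ta.2788.1.A1_at and Ta.1234.1.S1_at (both -1.02) outside. On the upper side there was a gap, where Ta.9481.1.S1_at (0.91) and the peroxidase Ta.30674.1.S1_at (0.88) were inside, and Ta.28766.3.S1_at (1.56) and Ta.15927.1.S1_at (1.65) outside. For the fall in WL711, TaAffx.5452.1.S1_at and Ta.8101.1.A1_at (both -2.01) were inside, and Ta.9687.1.S1_at (-1.99) and Ta.5600.1.S1_a_at (-1.98) outside. No probe set was left out by the limit on IITR26.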

How the data were processed

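Grains of IITR26 and WL711 at 28 and 14 DAA were measured on 12 single-colour arrays, 3 for each group. GeneSpring GX and RMA were the authors' software and normalization (background correction, quantile normalization and probe summary), and the deposited values are log2 values, shifted by a step not given in the sources used here so that each probe set has a median of 0 over the 12 arrays. Differences between arrays are untouched by the shift, while levels are lost. Of 61290 probe sets, 111 controls were left out. The model had a mean for each of the 4 groups and was fitted to the 61179 others with limma 3.58.1 under R 4.3.3 (lmFit, then eBayes, with 8 residual degrees of freedom), with Benjamini-Hochberg adjustment over all of them. A call needs a log2 change of at least 2 and an adjusted p no higher than 0.01. The fit was tested on simulated data. An exact test of 3 against 3 arrays cannot give a p below 0.1 and was not used.

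Samples were grouped by GEO's labels. The members, lists and named probe sets were chosen with earlier results of these data known. Named were the members with the strongest difference at 14 DAA (8 with and 4 without a function or name), up to 5 of each function list, the extremes of the change in IITR26, the 2 on either side of each limit, the 4 widest spreads, the members in the study's function table, which include all that its text discusses, and members with a gene name. Taking the whole function table was decided after the values were seen. Probe sets outside this rule, named as exceptions to a count or as cluster partners, were chosen after their values were seen. Functions are the study's putative ones, and 1272 of 1273 genes of the platform annotation matched the gene table. No genome or sequence was used, so no position is given. Replicate numbers were compared between the groups. The deviations of 18 same-numbered array pairs from their group means correlated between -0.065 and 0.19, with 2 above 0.1. Between IITR26 and WL711 at 14 DAA, same-numbered pairs had 0.035, 0.16 and 0.19, and differently numbered pairs lay between -0.21 and 0.076. Between IITR26 at 28 DAA and WL711 at 14 DAA, same-numbered pairs had -0.065, 0.048 and 0.052. Whether the numbers pair the arrays was not tested, and the model did not pair them. Alternatives were another normalization, another centring, other thresholds and tests, and each array left out.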

Additional observations from a re-analysis of the deposited data

Results flagged for a closer look

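In 184 members the genotype difference changed between the stages by limma's interaction term (adjusted p of at most 0.01 and a change of at least 2), a difference between the effects of genotype at 28 and 14 DAA. Over all probe sets, 0.729% were called higher, as these 184 were, and 0.796% lower. The members were chosen for a difference at 14 DAA that was gone at 28 DAA, so the count of 184 follows from the choice.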

How the results depend on the processing

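The repeated quantile normalization left 117 probe sets by the rule and raised the mirror image to 69. The members' median difference was then 0.021 at 28 DAA and -2.0 at 14 DAA, and the change in WL711 was -2.85. The calls were 114 at 14 DAA (0.477% of all probe sets) and 106 for the interaction (0.538%), and 20 members were low on the third WL711 array at 14 DAA, all 20 of them above -0.5 in IITR26. Of 123 named members, 119 moved by more than the replicate SD at 14 DAA, and the difference of LOC543318 (Ta.3.1.S1_at) turned to 1.03, against -2.02 before. This setting gives every array the same spread of deviations. It was applied to values already quantile normalized and centred on each probe set, so these shifts follow from the unequal spreads. Whether those spreads are technical cannot be told from it. Thresholds of 1.5 gave 389 probe sets, and thresholds of 2.5 gave 166. A limit of 0.5 at 28 DAA gave 179, and a limit of 1.5 gave 276. A filter on the variation within groups, modelled on that of the methods, kept 172 of the members. The methods' unpaired t-test was run without their earlier variation filter and analysis of variance. At its own threshold, without adjustment, it called 221 members at 14 DAA, 30 for IITR26 and 229 for WL711. The shares of all probe sets were 0.799%, 1.57% and 1.27%. With a Benjamini-Hochberg adjustment, which the methods do not state for this test, it called 40, 6 and 99 (0.208%, 0.786% and 0.409%). For IITR26, a log2 change of 1 called 67 (5.43%), and without suffixes x, s and a 19 were called (1.2%) and 21 fell by 2 or more.

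Without 1 array at a time, the rule gave 216 to 254 probe sets and the mirror image 13 to 21. The medians were -3.15 to -2.96 at 14 DAA, -0.19 to -0.096 at 28 DAA, -0.50 to -0.36 in IITR26 and -3.89 to -3.69 in WL711. Calls were 207 to 233 at 14 DAA, 28 to 40 for IITR26, 226 to 236 for WL711 and 156 to 187 for the interaction. Over all probe sets the shares called in the same directions were 0.651% to 0.819%, 1.48% to 1.69%, 1.21% to 1.46% and 0.615% to 0.799%. Between 113 and 123 members lay within 0.5 in IITR26, and 28 to 40 fell by 2 or more. With the replicate number as a block the calls were 232 at 14 DAA (0.772%), 35 for IITR26 (1.59%), 236 for WL711 (1.34%) and 180 for the interaction (0.695%), and no count moved by over 1.5 times. The settings for the mirror image, the changes in IITR26, the third WL711 array and the unadjusted t-test were chosen after seeing the data. With 3 arrays a group and no levels, distance from background was not known, so a small value near 0 could not be told from no signal.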

Other observations

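The 17 probe sets of the mirror image were chosen by the same rule with the genotypes exchanged, and were led by a Kunitz-type protease inhibitor (Ta.10028.1.S1_at), with a difference of 5.6 at 14 DAA and a change of -5.97 in IITR26, and a glucan synthase-like protein (Ta.26351.1.A1_at), with 4.46 and -3.88. These values are a description, since the group means chose these probe sets too.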
